A study of Mus musculus with 16 samples.

Results

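Sub-capsular sinus macrophages (SSMs) sorted from tumor-draining lymph nodes (tdLN) were compared over all genes with SSMs sorted from non-draining lymph nodes (ndLN) of the same mice. The samples were chosen by their labels alone, which gave 8 of the 16 deposited samples, each a lane of 1 of 4 libraries, with 2 libraries from tdLN and 2 from ndLN. The other 8 samples, also 4 libraries, are medullary sinus macrophages (MSMs), which served to estimate the spread and, in a single comparison, as a reference for the effect of the node. The question was how SSM gene expression differs in a node that receives lymph from a tumor.

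All mice were C57B/6 males that carried a MOC2 tumor, a transplanted squamous cell carcinoma line, started from 500000 cells placed in the flank skin 2 weeks earlier. Both groups therefore came from tumor-bearing animals. Each pool joined 2 mice, and its tdLN sample held 2 nodes whereas its ndLN sample held 6 nodes from contralateral inguinal, axillary and brachial sites, so that tumor drainage and node site cannot be told apart. SSMs were sorted as live CD45+ CD11b+ CD169+ CD11c- cells of low side scatter after CD3+, B220+ and Ly6G+ cells had been gated out, and MSMs as the CD11c+ cells of high side scatter. The genes behind these gates are no finding. Every library was sequenced on lanes 3 and 4, whose counts differed by no more than sampling noise and were summed, which gave between 42972328 and 48130352 counts per library. Levels are CPM, counts scaled to the library size after TMM normalization, and changes are log2 fold changes with their standard error (SE), tdLN against ndLN. A gene is called where the adjusted p of edgeR's quasi-likelihood test is under 0.01 and the mean normalized count is over 100. The fit held group and pool over all 8 libraries. With n = 2 pools per group, these p-values rest on the spread left in that fit, which SSM and MSM libraries share. They do not measure the spread between animals.

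SSMs line the sinus beneath the node capsule, where lymph enters. They hold particulate material and immune complexes on their surface and pass them to B cells, and they are known for weaker degradation of what they take up than MSMs. Macrophages in general clear dying cells through receptors such as Mertk, display peptides to CD4 T cells on MHC class II, and recycle iron and lipid from what they engulf.

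Of 21085 genes tested, 639 were called, which is 3.03% of them. Expression was higher in tdLN for 418 genes (1.98%) and lower for 221 (1.05%). Called or not, 25.6% of all genes were higher in both tdLN libraries than in both ndLN libraries, and 26.3% were lower in both. Lysosomal, vacuolar ATPase and Fc receptor lists hold 25 of the calls, and the other 614 lie outside them. The rises included MHC class II, complement, scavenger receptor, Toll-like receptor and stress genes, and the falls included lymphoid and mast cell genes. The change had the same sign in both pools for 637 of the 639 genes. These genes were selected on the same libraries, so that agreement in sign was largely set by the selection and is no separate support. The number of calls depended on every library: 8 genes were called without the tdLN library of pool 1 and 2 without that of pool 2, although 638 of the 639 kept their sign in either case. A fit on the 4 SSM libraries alone called 0 genes by edgeR, with 4796 at an unadjusted p under 0.05, and DESeq2 on all 8 libraries called 1975.

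**Figure D1:**
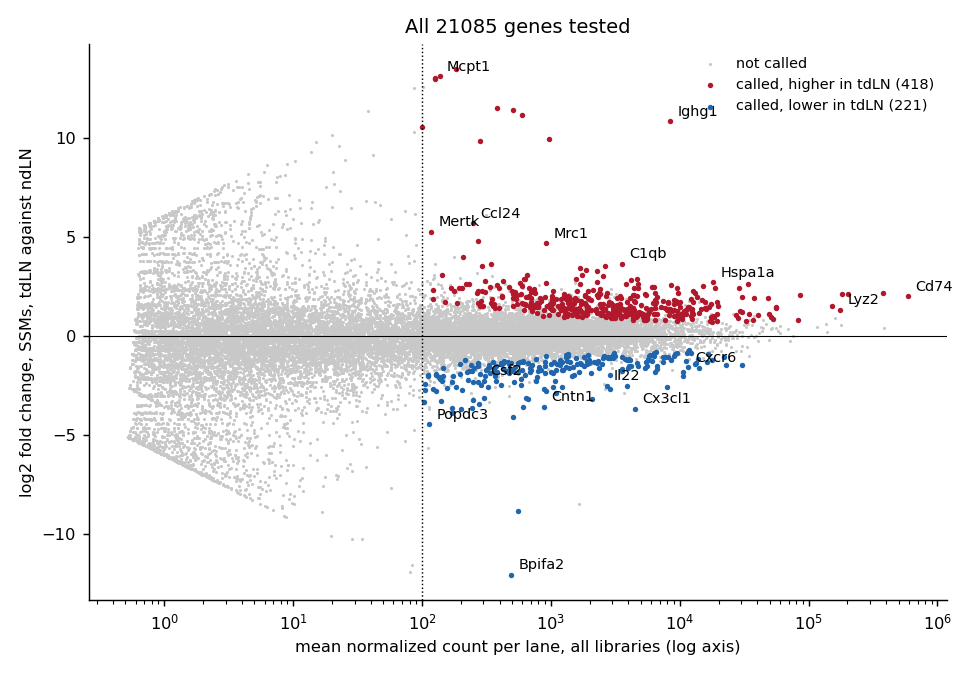
Mean normalized count per lane (x axis, log scale) against the log2 fold change of SSMs from tdLN against ndLN (y axis) for each of 21085 genes, with the 418 genes called higher in tdLN in red, the 221 called lower in blue, the rest in grey and the count cut-off of 100 as a dotted line. Ighg1, Mcpt1 and Bpifa2 are among the called genes with the largest changes.

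Of 15 genes of macrophage identity listed, 13 were tested, and 8 were called higher and 0 lower. In both tdLN libraries 12 were higher and 1 lower, orders that 25.6% and 26.3% of all genes show. The median log2 fold change of the list was 1.39 against -0.04 over all genes. Vsig4 and Clec4f had too few counts to be tested. Siglec1, which encodes the CD169 used for the sort, stood at 15.1 and 8.47 CPM in ndLN and at 70.0 and 59.2 CPM in tdLN. Csf1r, the receptor for the growth factor that sustains macrophages, stood at 694 and 559 CPM in ndLN and at 1887 and 1408 CPM in tdLN, and its adjusted p of 0.00984 became 0.0217 without pool in the model. Mmp14, a membrane-bound matrix protease, rose by 2.72 (SE 0.23, adjusted p = 0.00161) from 42.4 and 37.7 CPM to 307 and 225 CPM. The scavenger receptors Cd163 and Marco were not called, at log2 fold changes of 2.47 and -0.60. The fraction from ndLN thus held transcripts of Siglec1, Csf1r and Mmp14, each at a lower level than in both tdLN libraries. Of these 3 genes, Siglec1 alone encodes a marker of the sort. In MSMs, the log2 fold changes of Siglec1, Csf1r and Mmp14 were 2.22, 0.47 and 1.08, beside 2.47, 1.39 and 2.72 in SSMs. The difference in node effect was not called for any of the 3.

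Transcripts of other cell types were present in the sorted fraction, and several of their lists moved with the node. The summed level of 11 T cell genes was 2308 and 2535 CPM in ndLN and 1018 and 1170 CPM in tdLN. That of 12 type 3 innate-like lymphoid genes was 1646 and 2104 CPM in ndLN and 634 and 647 CPM in tdLN. That of 10 connective tissue mast cell genes was 3241 and 2190 CPM in ndLN and 375 and 805 CPM in tdLN. In all 3 lists the groups do not overlap, with the lower values in tdLN. Monocyte genes went the other way, from 3319 and 1769 CPM to 6241 and 5910 CPM. Genes of natural killer cells summed to 3686 and 2969 CPM in ndLN and to 2266 and 3248 CPM in tdLN, where the groups overlap. B cell genes lay between 33.8 and 45.6 CPM in the 4 libraries. Ly6g, the gated neutrophil marker, was at 0 in 3 of them. The 12 neutrophil genes, Ly6g among them, still summed to 68.8 and 308 CPM in ndLN and to 636 and 215 CPM in tdLN, where the groups overlap. In bulk libraries, fewer cells of a type and less RNA per cell cannot be told apart, and the part of these markers in the changes described here was not tested.

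**Figure D2:**
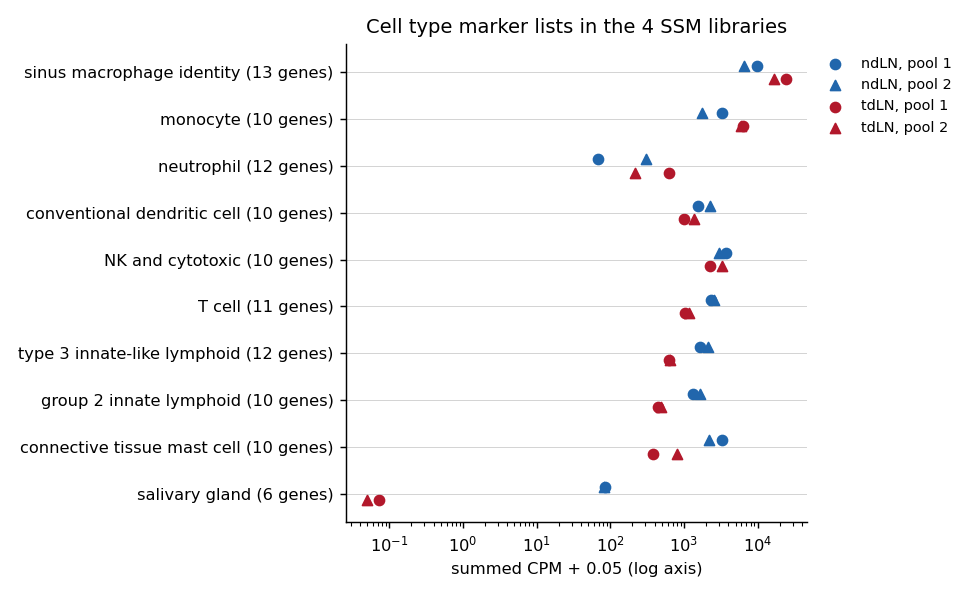
Summed CPM plus 0.05 (x axis, log scale) over each cell type marker list in the 4 SSM libraries, with ndLN in blue, tdLN in red, pool 1 as circles and pool 2 as triangles. Macrophage and monocyte sums are higher in both tdLN libraries, T cell, type 3 and group 2 innate lymphoid, conventional dendritic cell, connective tissue mast cell and salivary gland sums are lower in both, and the neutrophil and natural killer sums overlap.

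Of the 12 genes of class II presentation tested, 9 were called higher and 0 lower, and the median change was 2.10 log2 units. H2-Ab1 (chr17:34257689-34269419, GRCm38), a chain of the classical I-A molecule, stood at 2770 and 2121 CPM in ndLN and at 12022 and 9961 CPM in tdLN. Both tdLN libraries lie well above both ndLN libraries, and H2-Ab1 rose by 2.17 (SE 0.11, adjusted p = 0.0008). H2-Aa, its partner chain, rose by 2.09, and H2-Eb1 of the I-E molecule by 2.11. Cd74, the invariant chain that guards the binding groove, rose by 2.01 from 5436 and 4253 CPM to 20778 and 18000 CPM (adjusted p = 0.0011). H2-DMa and H2-DMb1, which together load peptide, rose by 2.26 and 2.41. Ciita, the transactivator of the class II genes, rose by 2.42 from 35.6 and 27.8 CPM to 156 and 185 CPM. Ifi30, a lysosomal thiol reductase, rose by 2.41, and Lgmn, an endosomal protease, by 1.72. The 3 members not called were H2-DMb2 at 0.73 and H2-Oa and H2-Ob, the chains of the DM inhibitor, both at -0.14.

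The promoters of 3 of these genes are shown because class II genes share upstream boxes at which Ciita is recruited. The 250 bases before the start of each gene were taken from RefSeq on GRCm38.p6, and capitals mark the Y box (GATTGG) and part of the X box (AACNGATG), searched on both strands. H2-Eb1 (chr17:34305617-34305866, plus strand) and H2-DMb1 (chr17:34152941-34153190, plus strand) hold both, and H2-Aa (chr17:34287824-34288073, minus strand) holds the Y box.
H2-Eb1: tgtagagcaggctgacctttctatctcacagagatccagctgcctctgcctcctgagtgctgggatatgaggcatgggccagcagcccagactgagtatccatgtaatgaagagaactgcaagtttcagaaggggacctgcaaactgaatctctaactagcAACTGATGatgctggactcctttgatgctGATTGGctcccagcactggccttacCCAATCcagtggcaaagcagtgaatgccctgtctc
H2-DMb1: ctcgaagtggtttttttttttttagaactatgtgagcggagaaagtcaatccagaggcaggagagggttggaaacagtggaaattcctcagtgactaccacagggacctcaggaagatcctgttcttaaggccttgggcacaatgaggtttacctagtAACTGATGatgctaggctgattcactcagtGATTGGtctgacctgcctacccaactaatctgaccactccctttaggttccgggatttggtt
H2-Aa: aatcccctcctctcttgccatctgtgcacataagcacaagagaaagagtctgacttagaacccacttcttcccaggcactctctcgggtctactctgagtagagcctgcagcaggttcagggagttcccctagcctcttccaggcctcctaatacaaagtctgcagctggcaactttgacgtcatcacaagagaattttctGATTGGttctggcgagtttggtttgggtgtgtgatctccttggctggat
Of the 12 class II genes, 9 have an entry in the RefSeq table. The Y box was found for 7 of these 9 genes (77.8%) and in 14.6% of all 32851 windows. The X box part was found for 3 of 9 (33.3%) and in 1.98% of all windows. A gene counts where any of its windows matches, so that these shares differ in unit from those over single windows. Of the 6 called genes with an entry, 4 held the Y box and 2 the X box part. A match describes letters, and binding was not tested.

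The node effect in SSMs differed from that in MSMs for 8 genes, 0.0379% of those tested, and 3 of them belong to the class II list. H2-Ab1 stood at 31880 and 27318 CPM in MSMs from ndLN and at 23585 and 23938 CPM in MSMs from tdLN. The MSM levels thus lay above those of SSMs in either node, and the node effect was 2.48 log2 units larger in SSMs (SE 0.15, adjusted p = 0.00812). For H2-DMb1 and Cd74 the difference was 2.53 and 2.28. Kmo, which encodes kynurenine 3-monooxygenase of tryptophan breakdown, stood at 6.75 and 6.97 CPM in SSMs from ndLN and at 62.9 and 69.3 CPM in SSMs from tdLN. It rose by 3.27 in SSMs against a change of 0.58 in MSMs, a difference of 2.69 (SE 0.22, adjusted p = 0.00948). The difference was 2.23 for Plbd1, a phospholipase B-like protein, and 2.15 for Fgd2, an exchange factor for the GTPase Cdc42. Htr7, a serotonin receptor, at 2.95, and Tnfrsf9, the costimulatory receptor 4-1BB, at -2.34, lost their call without pool in the model, with adjusted p of 0.0108 and 0.0112, and were singled out once their values were known. None of the 8 calls remained in any fit that left out a library.

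**Figure D3:**
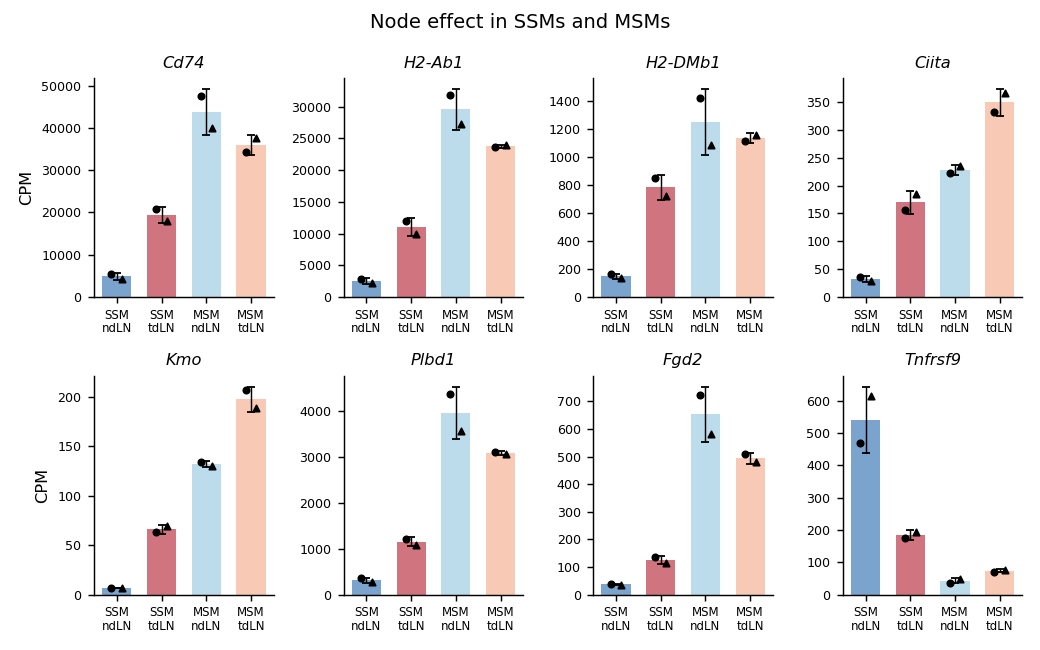
CPM (y axis, from 0) of 8 genes in SSMs and MSMs from ndLN and tdLN, as bars for the mean of 2 pools, lines for the SD, circles for pool 1 and triangles for pool 2. In SSMs, Cd74, H2-Ab1, H2-DMb1, Ciita, Kmo, Plbd1 and Fgd2 are higher and Tnfrsf9 is lower in both tdLN libraries, and Cd74, H2-Ab1, Plbd1 and Fgd2 are lower in both tdLN libraries of MSMs.

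Of 29 receptors for uptake of dying cells and of modified lipoproteins tested, 7 were called higher and 1 lower. In both tdLN libraries 16 were higher and 8 lower, orders that 25.6% and 26.3% of all genes show. Mertk, a kinase that triggers engulfment of dying cells, stood at 0.129 and 0.465 CPM in ndLN and at 14.1 and 8.21 CPM in tdLN. It rose by 5.25 (SE 0.50, adjusted p = 0.00193). Mrc1, the mannose receptor, counted in the identity list, stood at 4.19 and 5.05 CPM in ndLN and at 108 and 125 CPM in tdLN, and rose by 4.65 (SE 0.51, adjusted p = 0.00265). Both genes were at or under 5.05 CPM in SSMs from ndLN. Clec4n, which encodes the fungal receptor dectin-2, rose by 2.60, Msr1, a class A scavenger receptor, by 1.91, and Clec7a, which encodes dectin-1, by 1.51. Axl, a kinase related to Mertk, rose by 1.58, but its adjusted p of 0.0024 became 0.0173 without pool. Cd36, a receptor for oxidised lipids, fell by 1.25, from 23.7 and 24.5 CPM to 10.1 and 10.2 CPM.

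Of 20 complement genes tested, 7 were called higher and 0 lower. In both tdLN libraries 15 were higher and 3 lower, against 25.6% and 26.3% of all genes. C1qb, a chain of the C1q molecule that starts the classical pathway, stood at 41.6 and 26.1 CPM in ndLN and at 471 and 363 CPM in tdLN. It rose by 3.62 (SE 0.39, adjusted p = 0.0026), beside 3.42 for C1qa and 3.05 for C1qc. The 3 chains thus rose by like amounts. C3ar1, the C3a receptor, rose by 2.10, and Cfp, which encodes properdin, by 1.89. C3 rose by 1.77, with an adjusted p of 0.00401 that became 0.0119 without pool.

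Of 15 iron and heme genes, 4 were called higher and 0 lower. In both tdLN libraries 8 were higher and 2 lower, against 25.6% and 26.3% of all genes. Hmox1, the heme-degrading enzyme, stood at 29.6 and 34.8 CPM in ndLN and at 200 and 192 CPM in tdLN, and rose by 2.61 (SE 0.19, adjusted p = 0.0011). Spic, a transcription factor of iron-recycling macrophages, rose by 1.93, Ftl1, the ferritin light chain, by 1.17, and Blvra, which reduces biliverdin, by 1.15. Of 20 lipid handling genes, 6 were called higher and 0 lower, and 17 were higher in both tdLN libraries. The other order was seen for 1, Cd9, at -0.71 and not called. Fabp5, a fatty acid carrier, rose by 2.61 from 52.5 and 50.0 CPM to 239 and 411 CPM, and Nr1h3, the oxysterol receptor LXR alpha, by 2.40. Lpl, lipoprotein lipase, rose by 1.87, Spp1, osteopontin, by 1.60, and Plin2, a lipid droplet coat protein, by 1.47. Cholesterol synthesis genes did not share this, since 1 of 20, Mvk, was called, and it fell by 2.09. Some of the iron and lipid changes were also seen in MSMs. The log2 fold changes there were 2.27 for Fabp5, 1.69 for Spic and 1.20 for Hmox1, but -0.04 for Spp1.

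All 19 Toll-like receptor pathway genes tested were higher in both tdLN libraries than in both ndLN libraries, an order that 25.6% of all genes show, and 7 were called. Tlr1 rose by 2.13, from 19.6 and 15.3 CPM to 77.6 and 74.0 CPM (SE 0.23, adjusted p = 0.0026). Unc93b1, which carries the nucleic acid sensing receptors to endosomes, rose by 1.71, Tlr2 by 1.60, and Myd88, the shared adaptor, by 1.36. Tlr8 rose by 1.63, with an adjusted p of 0.00411 that became 0.0259 without pool. Il1b, the cytokine interleukin-1 beta, stood at 1980 and 1111 CPM in ndLN and at 6856 and 5728 CPM in tdLN. It rose by 2.06 (SE 0.19, adjusted p = 0.00192), beside Il18 at 1.98, its antagonist Il1rn at 1.67, and Gsdmd, the pore former of inflammatory cell death, at 0.99. Osm, oncostatin M, rose by 1.42. Of 15 inflammasome genes, 3 were called higher and 0 lower.

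Of 39 interferon-stimulated genes tested, 36 were higher in both tdLN libraries than in both ndLN libraries, against 25.6% of all genes. Their median log2 fold change was 1.43, yet 4 were called. The libraries from ndLN differed between pools, with a summed level of 5290 CPM in pool 1 and 2019 CPM in pool 2, against 9723 and 9124 CPM in tdLN. Stat2, a signal carrier of the type I interferon receptor, rose by 1.28 from 77.7 and 51.7 CPM to 170 and 142 CPM (adjusted p = 0.00617). Oas1g, Rtp4 and Oas1a had log2 fold changes of 2.21, 2.07 and 1.93, and their adjusted p of 0.00389, 0.00991 and 0.00958 became 0.0156, 0.0185 and 0.0242 without pool. Oas1a and Oas1g are near copies whose reads may be divided between them. Irf7, the amplifier of the interferon response, stood at 813 and 314 CPM in ndLN and at 1471 and 1461 CPM in tdLN and was not called (adjusted p = 0.0759). The promoters of Oas1a (chr5:120907526-120907775, minus strand) and Stat2 (chr10:128270248-128270497, plus strand) are shown because both hold the interferon-stimulated response element, searched as 2 copies of GAAA with 2 bases between them on both strands and set in capitals, in the 250 bases upstream on GRCm38.p6.
Oas1a: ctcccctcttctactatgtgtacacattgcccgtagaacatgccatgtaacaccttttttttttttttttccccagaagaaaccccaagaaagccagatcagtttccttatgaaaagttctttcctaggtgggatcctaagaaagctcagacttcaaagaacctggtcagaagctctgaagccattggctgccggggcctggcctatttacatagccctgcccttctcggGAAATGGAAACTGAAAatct
Stat2: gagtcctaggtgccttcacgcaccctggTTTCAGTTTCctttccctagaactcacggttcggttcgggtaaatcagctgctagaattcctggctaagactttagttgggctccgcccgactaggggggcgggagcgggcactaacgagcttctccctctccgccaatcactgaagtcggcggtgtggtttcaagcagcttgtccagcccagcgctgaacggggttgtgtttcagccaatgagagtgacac
In Oas1a the capitals join 2 overlapping matches, and in Stat2 the match is on the other strand. The element was found in 13 of the 29 interferon-stimulated genes with an entry (44.8%), where any window of a gene could match, and in 2.98% of all single windows. Of 24 interferon gamma-induced genes, Ciita was called higher and Socs1, a brake on cytokine signalling, fell by 1.63.

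Of 25 stress and immediate early genes, 12 were called higher and 0 lower. In both tdLN libraries 17 were higher, and 5 were lower without being called, against 25.6% and 26.3% of all genes. Hspa1a, an inducible Hsp70, stood at 170 and 174 CPM in ndLN and at 998 and 1216 CPM in tdLN, and rose by 2.68 (SE 0.17, adjusted p = 0.0011). Its near copy Hspa1b rose by 2.63. Egr2, a transcription factor induced within minutes of stimulation, rose by 2.04, and Jun and Ier3 both by 1.67. Zfp36, which destabilises cytokine messages, rose by 1.45. In MSMs, Hspa1a and Hspa1b changed by 1.21 and 1.23, and Egr2 by 0.04.

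**Figure D4:**
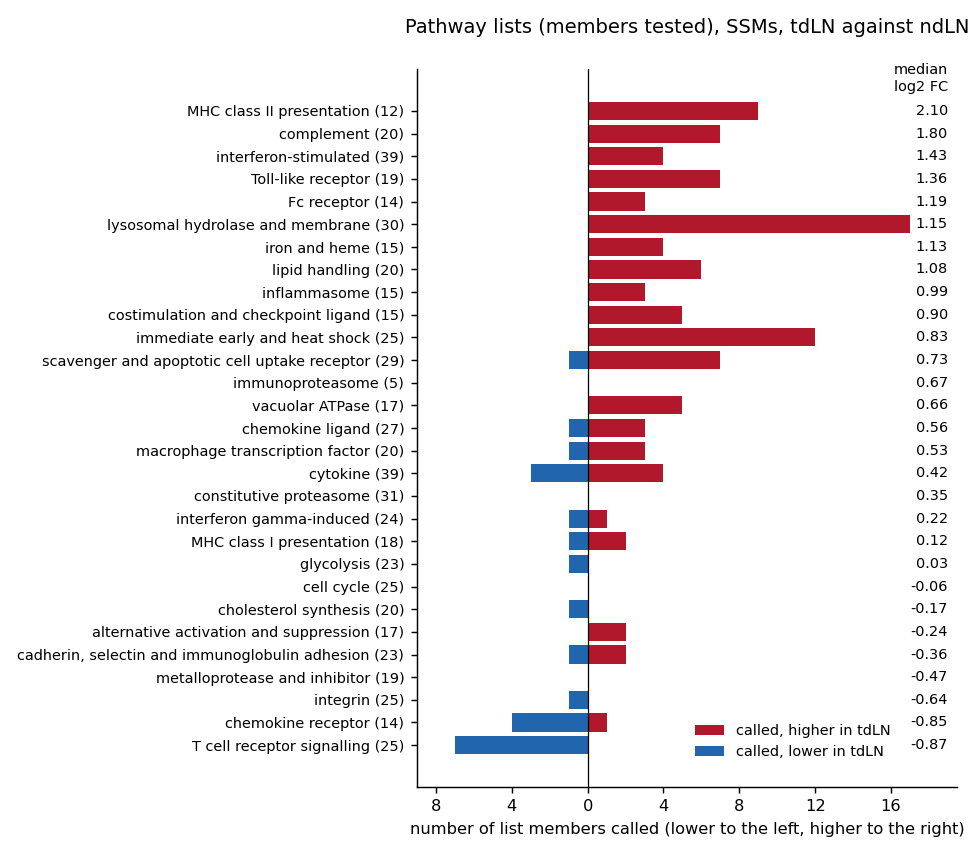
Number of genes called lower (blue, to the left) and higher (red, to the right) in SSMs from tdLN for each pathway list, with the number of genes tested in parentheses and the median log2 fold change at the right. Class II presentation (9 called higher, median 2.10) leads by median, and T cell receptor signalling (7 called lower, median -0.87) is at the bottom.

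Costimulation and antigen presentation other than class II changed less evenly. Of 15 costimulatory and checkpoint ligands, 5 were called higher and 0 lower. Sirpa, the CD47 receptor, rose by 1.83, Cd86 by 1.25, Cd40 by 1.17, and Vsir, which encodes the inhibitory ligand VISTA, by 0.98. Havcr2, the TIM-3 receptor, rose by 1.04, with an adjusted p of 0.00731 that became 0.0107 without pool. Of 18 class I presentation genes, H2-M3 and the peptide pump gene Tap1 rose by 1.14 and 0.93, and H2-Q6, a nonclassical class I gene with close paralogs, fell by 0.87. No proteasome gene was called: the median log2 fold change was 0.35 over 31 constitutive subunits and 0.67 over 5 immunoproteasome genes. Of the 31 constitutive subunits, 30 were higher in both tdLN libraries, against 25.6% of all genes.

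Of 30 lysosomal hydrolase and membrane genes, 17 were called higher and 0 lower. In both tdLN libraries 24 were higher and 3 lower, against 25.6% and 26.3% of all genes. For 17 vacuolar ATPase subunits these counts were, in the same order, 5, 0, 16 and 0, and for 14 Fc receptors 3, 0, 11 and 2. Ctsc, cathepsin C, led the lysosomal list by 1.96, from 901 and 596 CPM to 3204 and 2567 CPM. Among Fc receptors, Fcgr2b, the inhibitory receptor for IgG, rose by 2.44 and Fcgrt, the neonatal receptor, by 1.91. Fcgr4 rose by 1.98 but lost its call without pool (adjusted p = 0.0154). Fcgr1 stood at 61.3 and 15.1 CPM in ndLN and at 171 and 144 CPM in tdLN and was not called (adjusted p = 0.015).

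T cell transcripts were lower in both tdLN libraries. All 11 T cell genes were lower in both tdLN libraries than in both ndLN libraries, an order that 26.3% of all genes show, and 3 were called. Cd4 stood at 404 and 475 CPM in ndLN and at 91.7 and 59.0 CPM in tdLN, and fell by 2.56 (SE 0.28, adjusted p = 0.00265). Cd8b1 fell by 1.37, and Zap70, the kinase of the T cell receptor, by 0.95, with an adjusted p of 0.0094 that became 0.012 without pool. The CD3 gene Cd3e, whose protein was gated out, stood at 151 and 143 CPM in ndLN and at 75.0 and 84.3 CPM in tdLN (adjusted p = 0.023). Of 25 genes of T cell receptor signalling, 7 were called lower and 0 higher. Tcf7, a T and innate lymphoid transcription factor, fell by 1.83, Pdcd1, which encodes PD-1, by 1.86, Lef1 by 1.38, and Ets1 by 1.22. In MSMs the medians of these lists were -2.08 and -1.66.

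Of 12 type 3 innate-like lymphoid genes, 5 were called lower and 0 higher. Il22, a cytokine that acts on epithelium, stood at 368 and 444 CPM in ndLN and at 85.0 and 58.6 CPM in tdLN, and fell by 2.53 (SE 0.25, adjusted p = 0.00224). Il17f fell by 2.31, Ccr6 by 1.75, Il23r by 1.72 and Il7r by 1.23. Il17a was not called, at -1.32. Of 10 genes of group 2 innate lymphoid cells, Il2ra, Rora and Gata3 fell by 1.97, 1.64 and 1.47. None of the 10 natural killer genes was called, and their median was -0.35, while Ifng stood at 42.8 and 34.0 CPM in ndLN and at 57.0 and 99.4 CPM in tdLN (adjusted p = 0.158).

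**Figure D5:**
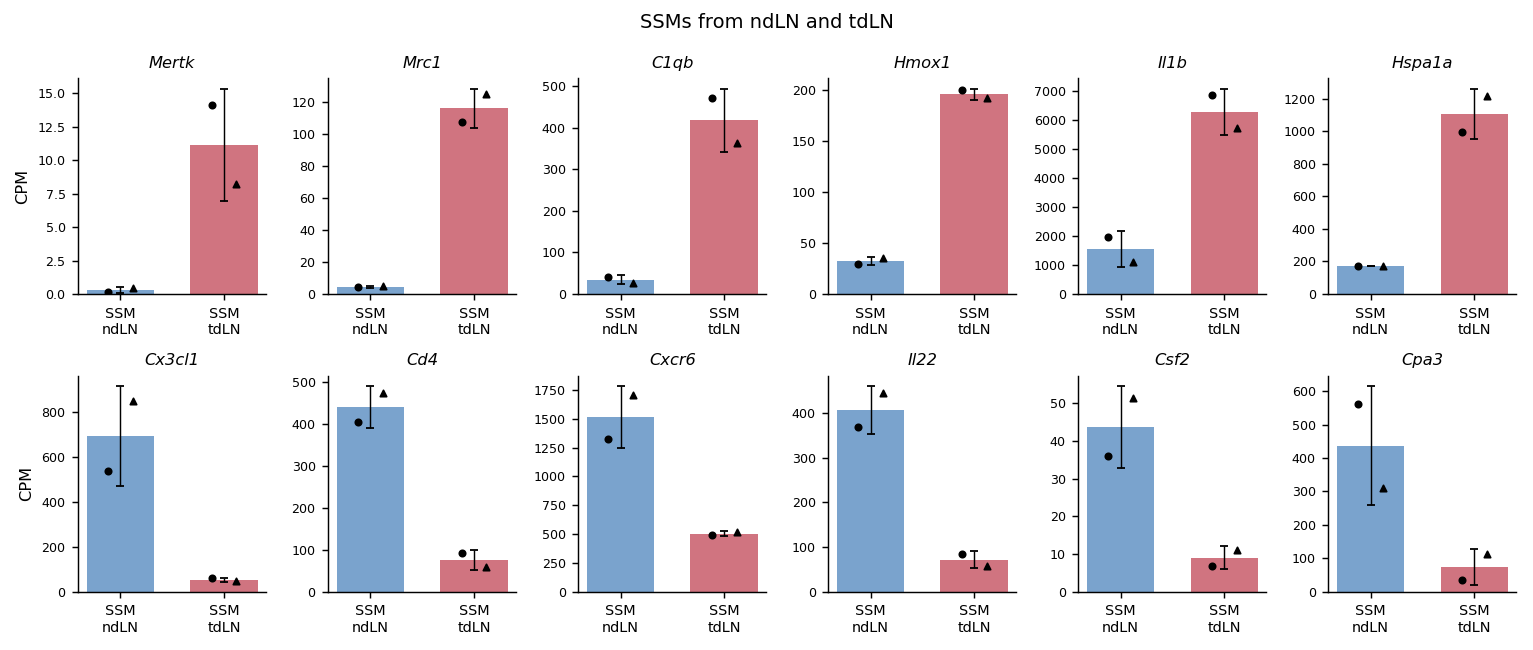
CPM (y axis, from 0) of 12 genes in SSMs from ndLN and tdLN, as bars for the mean of 2 pools, lines for the SD, circles for pool 1 and triangles for pool 2. Mertk, Mrc1, C1qb, Hmox1, Il1b and Hspa1a are higher and Cx3cl1, Cd4, Cxcr6, Il22, Csf2 and Cpa3 are lower in both tdLN libraries.

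Chemokine, cytokine and receptor genes went both ways. Cx3cl1, the membrane-bound chemokine fractalkine, stood at 538 and 851 CPM in ndLN and at 60.4 and 46.4 CPM in tdLN, and fell by 3.70 (SE 0.28, adjusted p = 0.0011). Of 14 chemokine receptors, Cxcr5, Ccr8, Ccr4 and Cxcr6 fell by 2.32, 1.72, 1.61 and 1.58. Cxcr6 stood at 1324 and 1703 CPM in ndLN and at 490 and 519 CPM in tdLN. Csf2, the growth factor GM-CSF, fell by 2.28, Tnfsf8, the CD30 ligand, by 2.60, Tnfsf11, which encodes RANKL, by 1.99, and Tnfsf4, the OX40 ligand, by 1.73. Ccl12, a monocyte attractant, rose by 2.28, and Cxcl2, a neutrophil attractant, by 1.16. Ccl24, an eosinophil attractant, stood at 0.46 and 0.728 CPM in ndLN and at 9.80 and 60.2 CPM in tdLN, and its adjusted p of 0.00225 became 0.011 without pool. Ccl4 stood at 262 and 146 CPM in ndLN and at 484 and 742 CPM in tdLN and was not called (adjusted p = 0.0224).

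Mast cell and basophil genes formed 2 lists. All 10 connective tissue mast cell genes were lower in both tdLN libraries, an order that 26.3% of all genes show, and 2 were called. Cpa3, a granule carboxypeptidase, stood at 562 and 311 CPM in ndLN and at 36.1 and 113 CPM in tdLN, and fell by 2.69 (SE 0.47, adjusted p = 0.00893). Kit, the stem cell factor receptor, fell by 2.61. Cma1, a chymase, had a log2 fold change of -2.69 and an adjusted p of 0.0136, which became 0.00747 without pool. Mcpt1, a mucosal mast cell chymase, had 0 counts in both ndLN libraries and stood at 17.3 and 31.2 CPM in tdLN, at least 419-fold higher against a floor of 3 counts per library. Mcpt8, a basophil protease, stood at 1.60 and 3.92 CPM in ndLN and at 20.4 and 23.8 CPM in tdLN, and rose by 3.06 (SE 0.38, adjusted p = 0.0047). Of the 10 basophil and mucosal mast cell genes, these 2 were called higher and 0 lower, and the median log2 fold change was 0.13. In both tdLN libraries 2 of the 10 were higher and 3 lower, against 25.6% and 26.3% of all genes. The summed level of this list overlapped between the nodes, with 173 and 105 CPM in ndLN and 123 and 196 CPM in tdLN.

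The largest changes lay in genes of several kinds. Ighg1, the IgG1 constant region, stood at 1.09 and 0.384 CPM in ndLN and at 724 and 1697 CPM in tdLN, and rose by 10.82 (SE 1.13, adjusted p = 0.00255). Other immunoglobulin transcripts were uneven between pools. Ighg2c stood at 0.294 and 540 CPM in ndLN and at 0.897 and 0.0229 CPM in tdLN, and Jchain, which joins secreted antibodies, at 1.14 and 48.5 CPM in ndLN and at 41.1 and 70.3 CPM in tdLN. Kif1a, a kinesin motor, rose by 4.78, Lrg1, a secreted leucine-rich glycoprotein, by 3.99, Mapk13, a p38 kinase, by 3.61, Spon1, a secreted matrix protein, by 3.53, Bex6 by 3.52 and the lectin Mgl2 by 3.33. Lrg1 stood at 1.97 and 2.04 CPM in ndLN and at 33.6 and 30.3 CPM in tdLN. Bpifa2, a salivary gland secretory protein, stood at 61.6 and 59.4 CPM in ndLN and had 1 count and 0 counts in the tdLN libraries. Over both pools the ratio of ndLN to tdLN was 5342 (95% exact interval 958 to 211011, counting error only). The salivary genes Smr3a, Amy1 and Pip had 0 counts in both tdLN libraries and lay under the mean count cut-off. Other large falls were Popdc3 at -4.48, Chad, a cartilage matrix protein, at -4.13, Arhgef28 at -3.89, Tdrd9 at -3.72, Foxs1 at -3.68, Tox2 at -3.66, Gm5541 at -3.62, the adhesion molecule Cntn1 at -3.58, Nrg2, a neuregulin, at -3.44 and Khdrbs3 at -3.36. Cntn1 stood at 128 and 160 CPM in ndLN and at 11.5 and 12.3 CPM in tdLN. Some of these changes were not confined to SSMs. In MSMs, the log2 fold changes were 8.18 for Ighg1, 3.65 for Spon1 and -10.0 for Bpifa2. They were -1.61 for Lrg1 and -0.09 for Cntn1.

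Several further groups had few members called. Over all genes tested, 639 of 21085 were called (3.03%), or 639 of the 9996 above the mean count cut-off. The glycolysis and integrin lists, with 1 call each, lie near these shares. Of 23 glycolysis genes, Hk2, a hexokinase, was called and fell by 1.86, from 173 and 184 CPM to 48.3 and 50.2 CPM. None of 25 cell cycle genes was called, and their median log2 fold change was -0.06. Of 25 integrin genes, Itgb7, the chain of the gut homing integrin, fell by 0.89. Among 23 other adhesion genes, Vcam1 and Cd48 rose by 2.00 and 0.81, and Cd96 fell by 1.11. Of 20 macrophage transcription factors, Cebpa and Spi1 rose by 2.43 and 1.32, and Bhlhe40 fell by 1.07. None of 19 metalloprotease and inhibitor genes, a list without Mmp14 and Mmp9, was called. Mmp9, listed as a neutrophil gene, fell by 2.58 from 27.7 and 24.0 CPM to 3.27 and 5.41 CPM, and the other 11 neutrophil genes were not called. Of 17 genes of alternative activation and suppression, Mgl2 and Il10ra, the interleukin-10 receptor, rose by 3.33 and 1.08. Among the remaining marker lists, Ccr2 rose by 1.20 and Ms4a4c by 1.74 among 10 monocyte genes, with the latter lost without pool (adjusted p = 0.0187). In 3 lists the 1 gene called did not stand for the list. Clec10a rose by 2.00 among 10 dendritic cell genes, whose median was -0.21. In both tdLN libraries 4 of the 10 were higher and 4 lower, against 25.6% and 26.3% of all genes. Prdm1 rose by 1.63 among 8 plasma cell genes, whose sums overlapped (686 and 930 CPM in ndLN, 814 and 792 CPM in tdLN). Tnfsf11 fell among 10 fibroblastic reticular genes, whose median was 1.12, with 4 higher and 2 lower in both tdLN libraries. No gene was called in the eosinophil, B cell, plasmacytoid dendritic cell, lymphatic endothelial, keratinocyte and carcinoma, or erythroid lists.

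A last set of protease, antimicrobial and signalling genes was examined because the study names them for this comparison. Lyz2, a lysozyme of macrophages, stood at 7940 and 5044 CPM in ndLN and at 19309 and 12932 CPM in tdLN and rose by 1.32, whereas Lyz1 was not called at 1.06 (adjusted p = 0.0433). The lysosomal membrane proteins Lamp1 and Lamp2 rose by 1.13 and 1.29, the latter with an adjusted p of 0.00409 that became 0.0127 without pool. Slpi, a protease inhibitor, stood at 32.7 and 25.6 CPM in ndLN and at 90.0 and 273 CPM in tdLN, where the pools lay far apart, and was not called (adjusted p = 0.097). The interferon-induced Mx2 was not called at 1.51 (adjusted p = 0.131), nor were the proteases Mmp19 at 2.32 and Mmp8 at 1.22 (adjusted p = 0.0157 and 0.02). Among genes with lower values in tdLN, the opioid precursor Penk at -3.23, the G protein subunit Gnai1 at -2.67, cathepsin F (Ctsf) at -1.84, Mmp23 at -1.51 and the eotaxin receptor Ccr3 at -1.12 had adjusted p of 0.0321, 0.0479, 0.0325, 0.0177 and 0.165 and were not called. Mmp23 passed without pool in the model (adjusted p = 0.00968).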

How the data were processed

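RNA sequencing libraries were made by the authors from sorted SSMs and MSMs with the SMART-Seq v4 kit. The submitters' processing notes name bcl2fastq 2.20.0.422, Trimmomatic 0.36, STAR 2.5.3a and GRCm38, and the deposited values are raw counts per gene, without normalization. The strand setting and counting mode are not given in the sources used here. The deposited table has 55423 rows, of which 2 are added sequences with 6 counts in all, and these stayed out of the tests. Gene symbols came from GENCODE M21, which held 55240 of 55421 gene IDs. Libraries had between 42972328 and 48130352 counts, and the floor of 3 counts lay between 0.0552 and 0.0769 CPM after TMM scaling, which covers counting error only.

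Lanes were summed after a chi-square check over genes with at least 20 counts (0.955 to 1.02 per degree of freedom between lanes, 53.1 and 29.3 between pools of SSMs from ndLN and tdLN). Genes were tested if their counts summed to 10 or more and they were detected in 2 or more of the 16 samples. The 8 libraries were fitted in edgeR 4.0.16 (R 4.3.3) on group and pool with TMM scaling, and the quasi-likelihood F test with Benjamini-Hochberg adjustment was used for both contrasts. The pool numbers 1 and 2 come from the labels' source names, and by the study's methods each pool of mice gave both nodes and both fractions. The title of 1 tdLN SSM library carries no number, and the study's sample matrix counts 4 pools, 1 for each number and lane. Deviations of same-numbered SSM libraries correlated by 0.0193 over 10000 genes. In simulated counts for 21085 genes, the fit recovered 92 of 100 genes changed 4-fold and 29 of 100 changed 2-fold, with 1 false call. Each gene was simulated around its mean over all 8 libraries with the trended spread. No pool effect or difference between SSMs and MSMs was put in, so these rates hold for that setting alone. The alternatives were the model without pool, DESeq2 1.42.0, its size factors, other filters and cut-offs, each lane alone, only the SSM libraries, the legacy quasi-likelihood fit and each library left out.

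The 48 gene lists, the comparisons and the alternatives were chosen with earlier results of these data known. Genes are named where they are among the 12 largest rises or falls that were called with and without pool, among up to 5 called members of a list with the largest change, among the genes the study names for this contrast, or among the 10 largest called differences from MSMs. A list without a call contributed its 2 members of highest mean where they bear on a result. Htr7, Tnfrsf9, further members of the class II, Toll-like receptor, mast cell, immunoglobulin, salivary and T cell signalling lists, Irf7, Cd163, Marco, Cd3e and Il17a were added once their values were known. A few list members that passed or missed the test are not reported here.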

Additional observations from a re-analysis of the deposited data

Results flagged for a closer look

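The effect of the node differed between SSMs and MSMs for 8 genes in edgeR's test of that difference, and these results were singled out for that reason. The difference, as the log2 node effect in SSMs minus that in MSMs, was 2.48 for H2-Ab1, 2.53 for H2-DMb1, 2.28 for Cd74, 2.69 for Kmo, 2.23 for Plbd1, 2.15 for Fgd2, 2.95 for Htr7 and -2.34 for Tnfrsf9. Both tdLN libraries of SSMs lay above both ndLN libraries for the first 7 genes and under them for Tnfrsf9. In MSMs, the log2 fold changes of the 8 genes lay between -0.40 and 0.80, the highest being that of Tnfrsf9, and none was called there.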

How the results depend on the processing

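Of 639 genes called, 579 were shared with the 796 called without the replicate block (pool), which gave 482 rises, 314 falls and 11 differences between SSMs and MSMs. The calls that changed with the pairing are given beside each gene in the text. A DESeq2 Wald test called 1975 genes, 1125 higher and 850 lower, and 708 differences. A filter of at least 1 CPM in 2 libraries gave 1130, 683 and 447, and 95 differences. An adjusted p cut-off of 0.05 gave 1832, 1121 and 711, and 215 differences. A Holm adjustment gave 7, 5 and 2, and 1 difference. Only the 4 SSM libraries gave 0, 0 and 0 by edgeR, with 4796 genes at an unadjusted p under 0.05. The legacy fit called 140 falls. DESeq2's size factors gave 4 differences, lane 3 alone 25 and lane 4 alone 29, and these size factors shifted the median log2 fold change by -0.06. Leaving out each library in turn gave between 2 and 345 called genes, between 1 and 244 rises and between 1 and 101 falls, and 0 differences throughout, with 1694 to 2993 at an unadjusted p under 0.05. The counts of calls were 190 and 18 without the SSM library from ndLN of pool 1 or 2, 8 and 2 without that from tdLN, 342 and 345 without the MSM library from ndLN, and 217 and 233 without that from tdLN. The cause was not tested, although each such fit has fewer samples. Among the 639 called genes, 638 kept their sign without the SSM library from ndLN of pool 2 and without either SSM library from tdLN. Every one tested kept it under the other alternatives. Since these genes were selected on the same libraries, their signs are no separate support. The sign turned for H2-Ob and Jchain, which were not called, with ranges of -0.28 to 0.0093 and -1.25 to 7.28 over the fits without a library. In simulated counts, 29 of 100 genes changed 2-fold were recovered, so that in that setting most such changes fell below the threshold. The simulated counts held no pool effect and no difference between SSMs and MSMs, and recovery in the real libraries was not tested.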

Other observations

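Families grouped by symbol after the values were seen give a further description of SSMs from tdLN. Purinergic receptors, which sense extracellular nucleotides, had 14 members tested, of which 5 were called higher and 1 lower. P2ry6 stood at 11.9 and 9.82 CPM in ndLN and at 61.6 and 49.2 CPM in tdLN, and rose by 2.35. P2ry12, P2ry13 and P2rx7 rose by 2.26, 2.25 and 2.08, and P2rx4 by 1.71. Of 15 Ms4a membrane proteins, 5 were called higher, led by Ms4a7 at 2.66, and 2 of these calls were lost without pool. Of 27 Clec lectins, 8 were called higher and 0 lower, led by Clec4b1 and Clec4a2, both at 2.87. All 4 Sirp receptors tested were called higher, from 1.83 for Sirpa to 2.24 for Sirpb1c, but the Sirpb1 genes are close copies that may share reads. Of 10 Cd300 receptors, 3 were called higher, with Cd300c2 at 2.29, and 1 of these 3 calls was lost without pool. Kynu, which encodes kynureninase, rose by 1.66 beside Kmo.

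Over all genes 3.03% were called. Among 55 Rab GTPases 2 were called higher, among 29 sorting nexins 3, and among 35 Vps genes 1 was called higher and 1 lower. Of 82 cytosolic ribosomal protein genes, 0 were called in either direction by edgeR, and their median log2 fold change was 0.16. Of 92 immunoglobulin variable segments tested, 9 were called higher and 1 lower, and 9 of these 10 calls were lost without pool.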
